A study of Mus musculus with 6 samples.

Results

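Expression of 37 genes of blood coagulation, fibrinolysis and complement was examined in the adrenal glands of adult female C57Bl/6J mice. The 37 genes were listed by name, from the known protein cascades of plasma, with earlier results of these data known. They were compared between 3 arrays of a control group and 3 arrays of a group whose mothers had received CGP 39551 (CGP). This drug blocks NMDA receptors for glutamate. The dams took CGP by mouth, at 5 mg/kg body weight, during all of pregnancy and on until weaning, and the female offspring were killed at 21 weeks of age. Controls were female mice of the same strain and age, labelled only as control. RNA of 18 mice was pooled in each group, so that no value belongs to a single animal. Whether the 3 arrays of a group held 1 pool or several is not stated, and p-values therefore reflect only the array-to-array spread, which may be technical. The comparison asks if adult adrenal expression of these genes differed after NMDA receptor block in early life.

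Of the 37 genes, 33 had a probe set (the group of probes that measures a transcript) annotated with a single gene symbol, out of 15384 such genes on the array. F11, Klkb1, Cpb2 and C3 had none and were not analysed here. Where a gene had more than 1 probe set, the brightest by the mean of the 6 arrays was used, and this applied only to Fga. Values are deposited log2 expression values, on which a difference of 1 is a 2-fold change. A gene was tested if 3 or more of the 6 arrays gave it a value of 6 or above, which left 28 of the 33. The filter took no account of group, but a gene can pass it through its brighter group alone, so counts among the 28 are not counts of all members.

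Coagulation is a chain of protease zymogens, each cut and activated by the one before, that ends in thrombin and a mesh of fibrin. Fibrinolysis dissolves that mesh through plasmin, and serine protease inhibitors hold both processes in check. Complement is a parallel protease cascade of innate immunity, started by antibody, by lectins that bind microbial sugars or by spontaneous turnover, and it ends in a pore made of terminal components. Most of the circulating proteins of these systems are made and secreted by hepatocytes, while some are also made by endothelial cells, macrophages, fibroblasts or fat.

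Of the 28 tested genes, 19 were lower in the CGP group (67.9%), 0 were higher and 9 missed the threshold (limma, adjusted p under 0.05). Among all 16034 probe sets tested, 1.59% were lower and 1.94% were higher by the same rule. The gene list was chosen with earlier results of these data known, so this contrast describes the list and does not test it. With a minimum change of 1.5-fold, 12 of the 28 were lower, against 0.748% of all tested. Every CGP array lay below every control array at 25 of the 33 measured genes, among them F13b and C9, which were not tested. The share over all tested probe sets was 12.6%. The median difference (log2, CGP minus control) was -0.48 over the 33 measured genes and -0.54 over the 28 tested, beside -0.01 over all tested probe sets. In the other direction 1 member, Pros1, had an unadjusted p under 0.05, and the groups overlapped for it. The falls ran from 0.44 (Fga) to 1.26 (Hrg). All these values are on the deposited log2 scale.

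The median of the 33 genes was 8.09 to 8.14 on the control arrays and 7.37 to 7.43 on the CGP arrays. The arrays within a group therefore lay close together, and the groups did not overlap. Relative to each gene's own control mean, the median deviation was -0.47, -0.51 and -0.45 on CGP arrays 1, 2 and 3. All 3 CGP arrays were low by similar amounts.

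Markers of hepatocytes moved in the same arrays. Of 33 measured hepatocyte markers outside the 37 genes, 31 were tested, of which 29 were lower, 0 were higher and 2 missed the threshold, and 1 had an unadjusted p under 0.05 in the upward direction (Cyp2e1, 0.17, limma adjusted p = 0.0706). Their median difference was -0.76 over the 33 measured, and 27 of the 33 lay above array background, a level set by sensory receptor probe sets, on all 6 arrays. Summed on the linear scale, the hepatocyte markers gave 53070 to 54110 on the control arrays and 35470 to 36000 on the CGP arrays. The summed level of the 33 coagulation and complement genes was 13910 to 14310 on the control arrays and 9667 to 9744 on the CGP arrays. The CGP level was therefore 66.7% of the control level for the hepatocyte markers and 68.8% for the coagulation and complement genes, by the middle of each range. Such sums are set mostly by the brightest genes, and the median differences were less alike (-0.76 and -0.48). The defining markers Alb (albumin) and Apoa2 (an apolipoprotein) lay well above background in both groups, Alb at 13.40 ± 0.02 in controls and 12.98 ± 0.05 in CGP (mean ± SD, n = 3 arrays each) and Apoa2 at 11.92 and 10.89. Hgd, Cps1 and Bhmt, enzymes of amino acid metabolism and the urea cycle, fell by 1.25, 1.20 and 1.05. The part of these cells in the differences reported here was not tested. Which tissue the RNA of these markers came from, in samples labelled adrenal, was not tested either. In pooled tissue RNA, fewer cells of a type and less RNA per cell cannot be told apart.

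The labelled tissue had its own markers. All 10 markers of the adrenal cortex and all 7 measured markers of the medulla lay above background on every array. Of the cortex markers 1 rose, Cyp11b2, the aldosterone synthase (by 0.50), while the other 9 did not pass, and of the medulla markers 0 of 7 passed (limma, 1 with an unadjusted p under 0.05). Adipocyte markers were higher, 13 of 14 tested, with the smallest adjusted p-values at Ucp1 (1.22), Aqp7 (1.02), Slc2a4 (0.65) and Acvr1c (0.78), with a summed linear level of 35330 to 36440 in controls and 49660 to 49860 in CGP. Of 8 macrophage markers tested limma called 0, with 2 at an unadjusted p under 0.05, and of 5 platelet markers 1 was lower, the chemokine Ppbp (by 0.46). Of 13 endothelial markers 1 was lower, the lectin Clec4g (by 0.44). By limma 3 of the 13 had an unadjusted p under 0.05, of which 1 was higher (Tek, 0.24).

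The fibrinogen genes are described first, with the DNA before their starts, because the 3 chains form a single protein and lie side by side on chromosome 3. Promoter windows of 300 bases, 250 before the annotated start and 50 after it, came from RefSeq (build GRCm38.p6) and were present for 30 of the 37 genes. A pair of motifs of liver and acute phase genes are in capitals in the printed windows: GTTAAT or its reverse complement ATTAAC, one arm of the site that the hepatocyte factor HNF1 binds, and CTGGGAA or TTCCCAG, the letters of the interleukin-6 response of fibrinogen genes. The window of Vtn is shown because it holds both motifs, as that of Fgb does, and that of Hc because it holds the HNF1 letters in a gene that did not pass the test.
Fga, chr3:83025903-83026202, + strand: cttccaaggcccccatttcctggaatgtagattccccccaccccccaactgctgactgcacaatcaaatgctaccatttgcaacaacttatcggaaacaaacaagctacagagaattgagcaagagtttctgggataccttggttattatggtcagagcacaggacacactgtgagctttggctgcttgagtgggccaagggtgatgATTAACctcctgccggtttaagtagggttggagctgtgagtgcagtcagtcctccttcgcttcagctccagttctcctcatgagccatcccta
Fgb, chr3:83049814-83050113, - strand: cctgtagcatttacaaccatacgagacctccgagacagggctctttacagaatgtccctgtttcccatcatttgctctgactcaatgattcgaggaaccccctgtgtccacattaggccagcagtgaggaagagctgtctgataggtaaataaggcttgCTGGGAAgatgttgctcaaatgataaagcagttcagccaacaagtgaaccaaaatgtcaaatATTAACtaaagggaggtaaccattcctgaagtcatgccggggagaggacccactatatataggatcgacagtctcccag
Fgg, chr3:83007474-83007773, + strand: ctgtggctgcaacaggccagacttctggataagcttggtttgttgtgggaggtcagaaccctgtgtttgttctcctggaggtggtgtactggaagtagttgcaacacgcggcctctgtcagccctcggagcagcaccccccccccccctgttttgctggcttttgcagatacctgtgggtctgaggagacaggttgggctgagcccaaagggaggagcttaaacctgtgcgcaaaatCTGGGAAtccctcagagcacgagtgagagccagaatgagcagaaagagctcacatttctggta
Vtn, chr11:78498870-78499169, + strand: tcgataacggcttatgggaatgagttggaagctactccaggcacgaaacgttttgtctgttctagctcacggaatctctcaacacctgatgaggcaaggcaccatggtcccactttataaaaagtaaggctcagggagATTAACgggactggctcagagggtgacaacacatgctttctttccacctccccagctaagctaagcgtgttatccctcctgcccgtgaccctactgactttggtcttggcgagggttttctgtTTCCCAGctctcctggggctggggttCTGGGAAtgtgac
Hc, chr2:35061363-35061662, - strand: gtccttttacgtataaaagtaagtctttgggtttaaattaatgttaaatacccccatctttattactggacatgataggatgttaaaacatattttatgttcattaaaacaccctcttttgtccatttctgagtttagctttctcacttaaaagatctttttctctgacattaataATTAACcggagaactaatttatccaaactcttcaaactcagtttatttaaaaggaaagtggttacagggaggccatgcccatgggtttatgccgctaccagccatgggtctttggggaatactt

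The HNF1 letters stood in 9 of the 30 member windows (30.0%), against 7.1% of all 32851 RefSeq windows. By outcome they stood in 5 of the 15 windows of genes that fell (Fga, Fgb, F2, Vtn and C4bp) and in 2 of the 6 windows of genes that did not pass (Hc and C8b), so the letters were present in both. The other 2 were F13b and C8a, which were not tested. The acute phase letters stood in 6 of the 30 windows (20.0%), against 11.1% of all windows, and TATAAA, the TATA box letters, in 5 (16.7%) against 13.6%. CAAAGTCCA, letters bound by the hepatocyte factor HNF4, stood in 0 of the 30 and in 0.475% of all windows. Both strands were searched, the motifs do not overlap each other in the printed windows, and a match is a description of the letters and not of a bound site. The RNA of Hnf4a, a hepatocyte marker, fell by 0.50 (8.50 ± 0.02 to 7.99 ± 0.04).

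Fibrinogen is the soluble precursor of the clot. Its beta chain gene Fgb read 10.10, 10.03 and 10.08 on the control arrays and 9.60, 9.56 and 9.63 on the CGP arrays. The groups stood apart by several times their spread, and Fgb fell by 0.48 (SE 0.046, adjusted p = 0.00111). The gamma chain gene Fgg read 9.77, 9.74 and 9.83 in controls and 8.85, 9.16 and 9.15 in CGP, a fall of 0.73 (SE 0.087, adjusted p = 0.00345) with CGP array 1 lowest. The alpha chain gene Fga was dimmer, at 7.22, 7.19 and 7.27 in controls and 6.95, 6.81 and 6.61 in CGP. It passed the test with a fall of 0.44 (adjusted p = 0.0314), but the call did not hold at several settings: adjusted p was 0.0694 without control array 2, 0.12 without control array 3, 0.11 without CGP array 2 and 0.0631 without CGP array 3. The other probe set of Fga had both means under background (6.50 ± 0.04 and 6.45 ± 0.10) and did not pass the test (adjusted p = 0.673). F13b, the carrier subunit of the factor that crosslinks fibrin, lay under background on all 6 arrays, with means of 6.12 and 5.79, and was not tested.

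Array background was the 75th percentile of 128 probe sets for sensory receptors of the nose, namely olfactory, vomeronasal and trace amine receptors, 6.49 to 6.65 on the control arrays and 6.41 to 6.55 on the CGP arrays. Of the 33 genes, 22 lay at or above it on all 6 arrays and 5 lay under it on all 6. Those 5, F13b, F9, Mbl1, C8a and C9, were also the 5 that the filter left out. Their values were between 4.89 and 6.26 and their differences between -0.33 and -0.14, which cannot show whether they changed.

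Among the zymogens that vitamin K dependent carboxylation prepares for clotting, prothrombin (F2), the precursor of thrombin, read 9.04, 8.96 and 8.95 in controls and 8.08, 8.30 and 8.18 in CGP. It fell by 0.79 (SE 0.065, adjusted p = 0.000432), a 1.73-fold difference with no overlap. F10, the precursor of the protease that cuts prothrombin, was tight in controls, at 7.73, 7.76 and 7.75, and lower in CGP, at 7.37, 7.18 and 7.33, a fall of 0.45 (adjusted p = 0.00552). F7, which starts the tissue factor pathway, lay at the edge of background (6.62, 6.58 and 6.77, then 6.52, 6.47 and 6.66), and the groups overlapped (difference -0.10, 95% interval -0.27 to 0.06, adjusted p = 0.462). F9, the factor lacking in haemophilia B, was under background on every array. F5, the cofactor of the protease made from F10, read 6.79, 6.71 and 6.87 in controls and 6.19, 6.20 and 6.30 in CGP. F5 passed the test (adjusted p = 0.00164), but all 3 of its CGP values were under background. With those values set to background its fall was 1.24-fold. This is not a strict lower bound, because background itself differed between the groups.

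**Figure D1:**
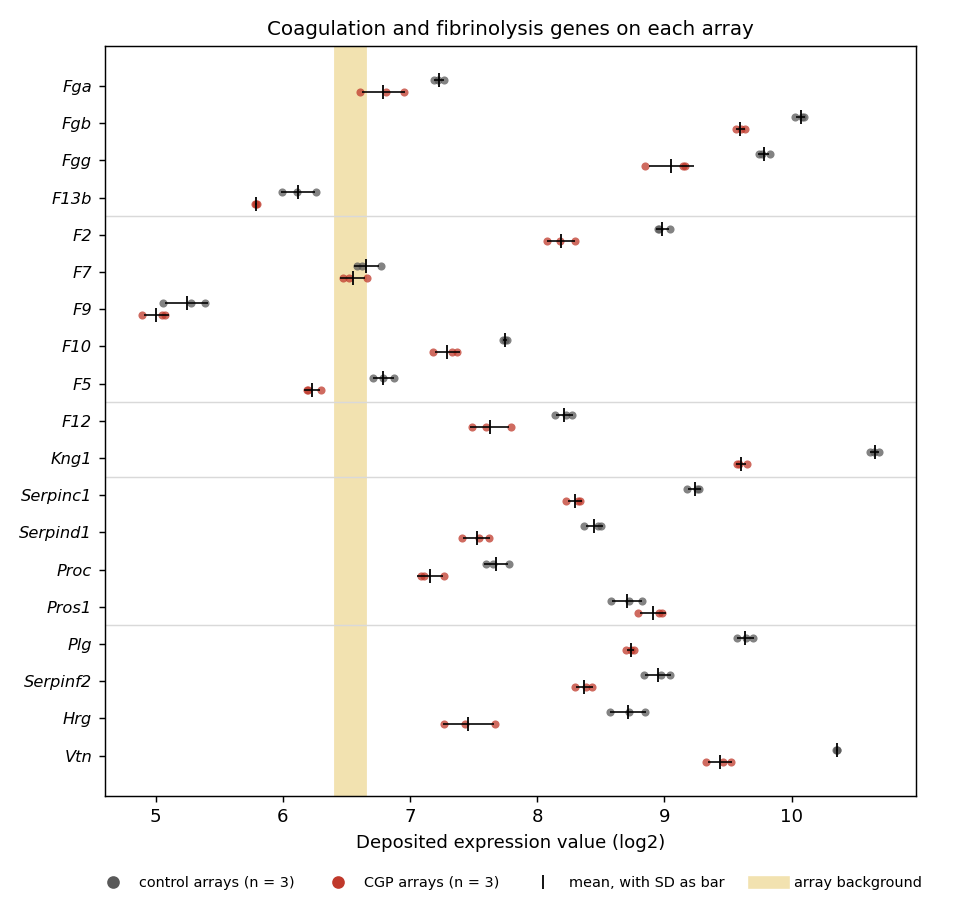
Deposited log2 values (horizontal axis) of the measured coagulation and fibrinolysis genes (vertical axis) per array, grey for the 3 controls and red for the 3 CGP arrays. Black marks give group mean and SD, and the band gives array background. Kng1 lies at 10.62 to 10.69 in controls and 9.57 to 9.65 in CGP, while the points of Pros1 and F7 overlap and F13b and F9 lie left of the band.

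The contact system starts clotting on charged surfaces and releases bradykinin. Kng1, the kininogen from which bradykinin is cut, had the smallest adjusted p of the 28 genes. It read 10.62, 10.65 and 10.69 in controls and 9.59, 9.57 and 9.65 in CGP, and fell by 1.05 (SE 0.046, adjusted p = 4.33e-05). Its neighbour and close copy Kng2, from the list of other coagulation genes, fell by 0.45 (adjusted p = 0.00442), and probes of these copies may share signal. F12, the zymogen that the surface activates, read 8.14, 8.23 and 8.27 in controls and 7.79, 7.60 and 7.49 in CGP, and fell by 0.59 (SE 0.081, adjusted p = 0.00723). Both measured genes of this group were therefore lower by at least 1.5-fold.

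Of the inhibitors of clotting, antithrombin (Serpinc1), which traps thrombin and the protease made from F10, read 9.27, 9.18 and 9.26 in controls and 8.23, 8.32 and 8.34 in CGP. Its fall was 0.94 (SE 0.051, adjusted p = 7.99e-05), and the CGP arrays spanned little. Heparin cofactor II (Serpind1), a second inhibitor of thrombin, read 8.48, 8.37 and 8.50 against 7.62, 7.54 and 7.41 and fell by 0.93 (adjusted p = 0.000228). Protein C (Proc), the zymogen of the protease that inactivates clotting cofactors, read 7.60, 7.78 and 7.65 against 7.11, 7.09 and 7.27 and fell by 0.52 (adjusted p = 0.00641). Its cofactor protein S (Pros1), which endothelial cells also make, went the other way in its means. It read 8.82, 8.58 and 8.72 in controls and 8.98, 8.96 and 8.79 in CGP, and the groups overlapped at the lowest CGP array (difference 0.20, 95% interval 0.02 to 0.38, adjusted p = 0.22). The intervals of protein C (-0.69 to -0.36) and protein S do not meet. Neither the difference between the genes nor their cell source was tested.

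All 4 measured genes of fibrinolysis and its control fell. Plasminogen (Plg), the zymogen of plasmin, read 9.70, 9.57 and 9.64 in controls and 8.76, 8.74 and 8.70 in CGP, a fall of 0.90 (SE 0.051, adjusted p = 0.000102). Alpha-2-antiplasmin (Serpinf2), the main inhibitor of plasmin, read 8.84, 8.97 and 9.04 against 8.38, 8.43 and 8.30 and fell by 0.58 (adjusted p = 0.00251). The zymogen and its inhibitor were both lower on all 3 CGP arrays. Histidine-rich glycoprotein (Hrg), a plasma protein that binds plasminogen and heparin, read 8.85, 8.57 and 8.72 in controls and 7.27, 7.43 and 7.67 in CGP. It had the largest fall of the 28 genes, 1.26 (SE 0.109, 95% interval of the difference -1.51 to -1.0, adjusted p = 0.000581), and also the widest standard error. Vitronectin (Vtn), which stabilises the inhibitor of plasminogen activators and blocks the terminal complement pore, read 10.36, 10.36 and 10.35 in controls and 9.52, 9.46 and 9.33 in CGP, and fell by 0.92 (SE 0.057, adjusted p = 0.000118).

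The complement genes follow in the order of their cascade. In the lectin pathway, Masp2, the protease that cuts C4 and C2, read 8.16, 8.09 and 8.10 in controls and 7.39, 7.46 and 7.58 in CGP and fell by 0.64 (SE 0.059, adjusted p = 0.000825). Masp1, whose gene also encodes the protease MASP-3 and a shorter protein by splicing, read 11.11, 11.10 and 11.02 against 11.01, 11.02 and 10.97. Its groups overlapped, and the 95% interval of the difference, -0.18 to 0.04, does not reach the falls of the 19 genes (adjusted p = 0.429). The mannose-binding lectin gene Mbl2 read 7.01, 7.02 and 7.16 against 6.86, 7.0 and 6.97, without overlap but by a small margin (difference -0.12, adjusted p = 0.315), and Mbl1 was under background on every array.

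Neither of the measured central components passed the test. C4b, the precursor that the lectin and classical pathways share, read 8.58, 8.56 and 8.52 in controls and 8.74, 8.51 and 8.62 in CGP, with overlap (difference 0.07, 95% interval -0.08 to 0.22, adjusted p = 0.582). C4b has a nearly identical copy, C4a, so its probes may measure both. Cfb, factor B of the alternative pathway, read 8.33, 8.23 and 8.36 against 8.17, 8.10 and 7.93. Its groups did not overlap, yet it missed the threshold (difference -0.24, 95% interval -0.41 to -0.08, adjusted p = 0.12). Macrophages and other cells outside the liver also make C4 and factor B, and whether this bears on these values was not tested.

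Of the 6 terminal components, which build the membrane pore, 1 fell. C8g, the gamma subunit of C8, read 8.79, 8.80 and 8.91 in controls and 7.71, 7.75 and 7.85 in CGP, and fell by 1.06 (SE 0.057, adjusted p = 7.99e-05), 2.09-fold. The beta subunit C8b read 6.85, 6.85 and 7.10 against 6.40, 6.43 and 6.70, with 1 CGP array under background, and just missed the threshold (difference -0.42, adjusted p = 0.0638). It passed without control array 1 (adjusted p = 0.0485) or CGP array 3 (adjusted p = 0.0496). C5 (Hc) also missed it, at 6.99, 6.90 and 6.97 against 6.60, 6.59 and 6.82 (difference -0.28, adjusted p = 0.077), and passed without CGP array 3 (adjusted p = 0.0359). In both genes CGP array 3 was the highest of its group. C6 read 6.75, 6.60 and 6.98 against 6.77, 6.79 and 6.88, with full overlap (adjusted p = 0.865), and C8a and C9 were under background on all arrays.

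Both regulators fell. Factor I (Cfi), the protease that inactivates C3b and C4b, read 6.61, 6.73 and 6.60 in controls and 6.11, 6.20 and 6.12 in CGP. It passed the test (adjusted p = 0.00225), but its CGP values and 1 of its control values lay under background. With those values set to background its fall was 1.12-fold. The same step gave 1.08-fold for F13b, which was under background on all 6 arrays, because background itself differed between the groups. The size of the fall of Cfi is therefore not known. C4bp, the C4b-binding protein that serves factor I as a cofactor, read 7.15, 6.98 and 7.39 against 6.46, 6.64 and 6.54, with 1 CGP array under background. It passed the test (adjusted p = 0.0161), and its fall was 1.51-fold with that array set to background. The call of C4bp was lost without CGP array 1 (adjusted p = 0.0676) or CGP array 3 (adjusted p = 0.0861).

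**Figure D2:**
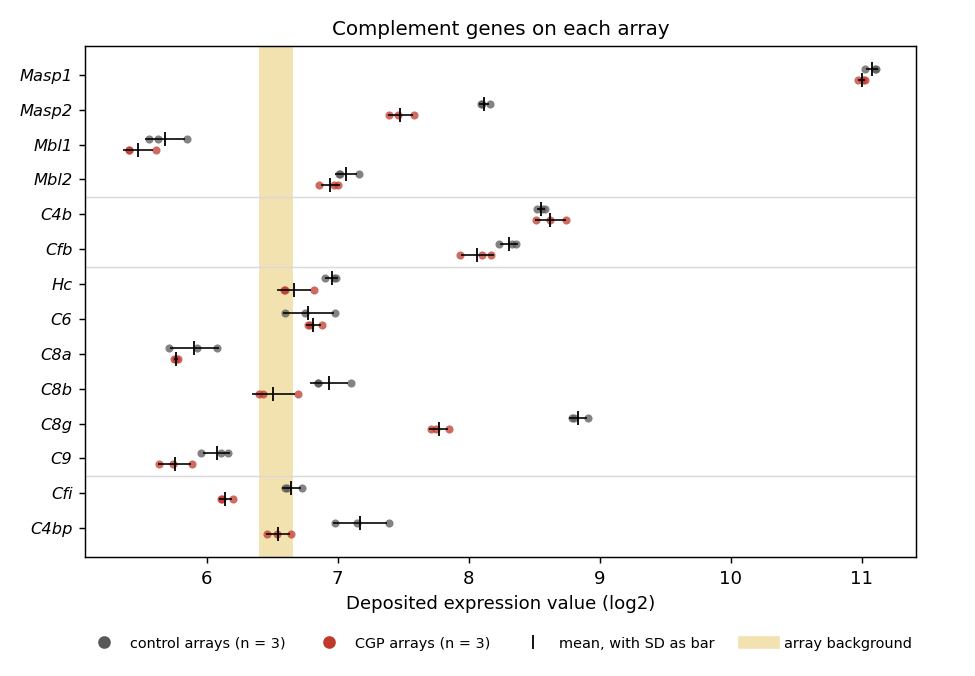
Deposited log2 values (horizontal axis) of the measured complement genes (vertical axis) per array, grey for the 3 controls and red for the 3 CGP arrays. Black marks give group mean and SD, and the band gives array background. C8g (8.79 to 8.91 against 7.71 to 7.85) and Masp2 stand apart between groups, Masp1, C4b and C6 overlap, and Mbl1, C8a and C9 lie left of the band.

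By role, the counts of lower genes were 3 of 3 tested for fibrinogen and its crosslinking, 3 of 4 for the zymogens and their cofactor, 2 of 2 for the contact system, 3 of 4 for the anticoagulants and 4 of 4 for fibrinolysis. In complement they were 1 of 3 for the lectin pathway, 0 of 2 for the central components (0 higher, by limma), 1 of 4 for the terminal components and 2 of 2 for the regulators. Among the central components 1, Cfb, had an unadjusted p under 0.05 (0.00984). These groups are small, and a difference between them was not tested.

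The fallen genes did not all fall to the same degree. Set against the median of the hepatocyte markers (-0.76), the 95% interval lay below it for 7 of the 28 tested genes (Hrg, C8g, Kng1, Serpinc1, Serpind1, Vtn and Plg), held it for 5 (F2, Fgg, Masp2, C4bp and F12) and lay above it for 16. Of these 16, 7 were among the 19 that fell (Serpinf2, F5, Proc, Cfi, Fgb, F10 and Fga). F5 and Cfi lay near background, which shrinks a measured fall. This is a description of each gene against a single fixed value, the median over the 33 measured markers. The median over the 31 tested markers was -0.79. Against that value, the intervals of Plg and Serpind1 (upper ends -0.78) hold it. Those of F12 and Masp2 (lower ends -0.78) lie above it, and that of Vtn ends at -0.79. The split therefore depends on which median is used.

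**Figure D3:**
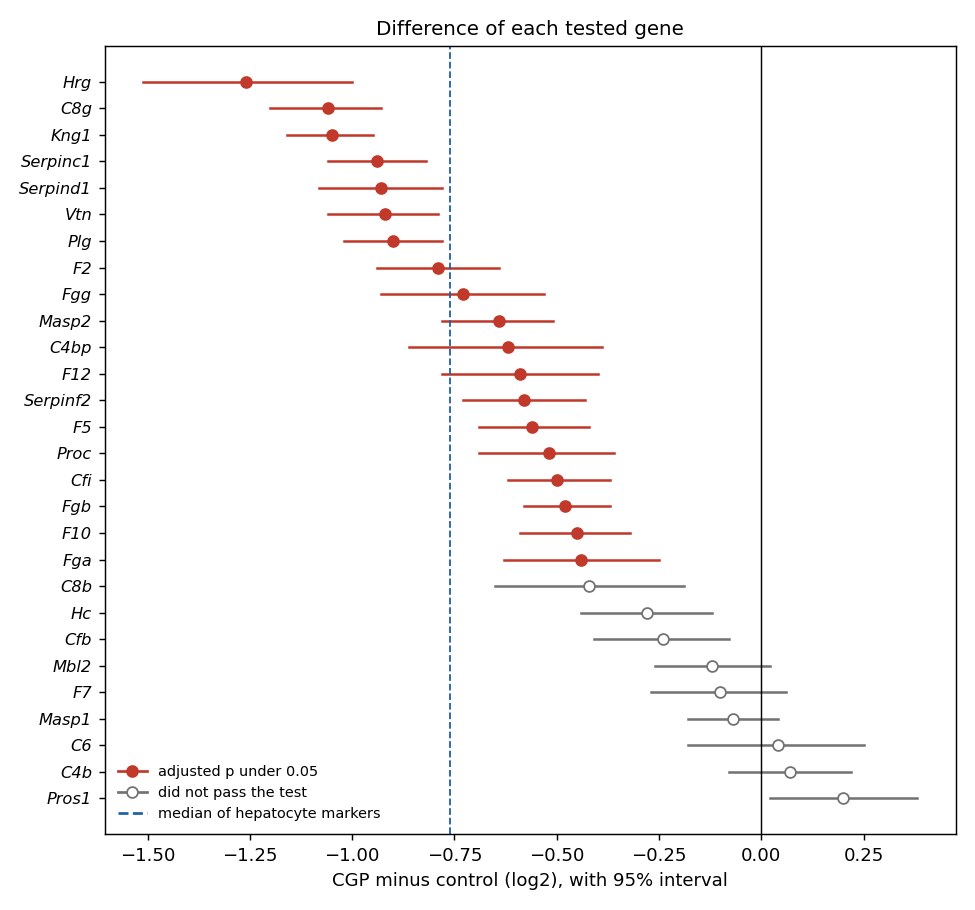
Difference between groups (horizontal axis, CGP minus control, log2, with its 95% interval from limma) of each of the 28 tested genes (vertical axis), filled red where the adjusted p was under 0.05 and open grey otherwise. The falls run from 1.26 for Hrg to 0.44 for Fga, and the dashed line at -0.76 is the median of the 33 measured hepatocyte markers.

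The rest of these pathways was read from 4 further lists. Of 61 tested genes of coagulation, fibrinolysis and complement outside the 37, 2 were lower, 0 were higher and 59 missed the threshold (limma, with 2 at an unadjusted p under 0.05 in the upward direction). Their median difference was -0.02 over the 64 measured and 0.00 over the 61 tested. The 2 were Kng2 and Cpn1, the catalytic subunit of the carboxypeptidase N that liver secretes and that trims bradykinin, which read 7.83, 7.73 and 7.66 in controls and 7.03, 6.89 and 6.99 in CGP (a fall of 0.77, adjusted p = 0.000395). By list, 1 of 23 coagulation genes, 1 of 9 fibrinolysis genes and 0 of 29 complement genes were lower by limma, and 2, 2 and 1 had a lower value at an unadjusted p under 0.05. Their summed linear level was 47740 to 49490 in controls and 48240 to 48770 in CGP, and these ranges overlap.

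Many genes of those lists are known from endothelium, macrophages or most cells. The following were chosen after their values were seen and do not stand for a cell type. Thbd, the endothelial thrombin receptor, differed by 0.13 (95% interval -0.02 to 0.28), Vwf, the platelet-binding factor of endothelium, by 0.03 (-0.10 to 0.16), and Tfpi, the inhibitor of the tissue factor pathway, by 0.11 (-0.06 to 0.28). C1qa, C1qb and C1qc, the subunits of C1q made by macrophages, differed by 0.05 (-0.07 to 0.16), -0.01 (-0.16 to 0.13) and -0.09 (-0.20 to 0.01), and C1qc had every CGP array below every control array. Serping1, the C1 inhibitor made by many cells, differed by 0.06 (-0.06 to 0.18). None of these 7 passed the test. Because they were chosen by their values, nothing is read from their distance to the 19 genes that fell. Proz (-0.18), Cpn2 (-0.17) and Serpina10 (-0.14) also did not pass. F13a1 missed the threshold too, with every CGP array above every control array (0.29, limma adjusted p = 0.14). A link with cell type was not tested. The enzymes of the vitamin K cycle, on which F2, F7, F9, F10, Proc and Pros1 depend for carboxylation, did not pass either. Ggcx differed by 0.11 (0.00 to 0.21), with every CGP array above every control array, and Vkorc1 by -0.08 (-0.19 to 0.04).

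Fibrinogen and several complement proteins belong to the acute phase proteins, whose synthesis in liver changes with inflammation. Of 19 tested acute phase genes outside the 37, 4 were lower, 0 were higher and 15 missed the threshold (limma, with 7 lower and 2 higher at an unadjusted p under 0.05), and their median difference was -0.06. The 4 were Crp, C-reactive protein (8.08, 7.95 and 7.87 in controls, 6.80, 6.83 and 6.93 in CGP, a fall of 1.12, adjusted p = 0.000112), Hpx, the heme carrier hemopexin (by 1.01), and the inter-alpha-trypsin inhibitor chains Itih3 (by 0.63) and Itih4 (by 0.53). The differences of the 15 that did not pass ran from -0.34 (Saa4, both means under background) to 0.24 (Steap4). Of these Orm1, an orosomucoid gene chosen after its values were seen, had every CGP array below every control array and came nearest to the threshold (difference -0.29, adjusted p = 0.0596). Such genes are also active outside the liver, and whether this bears on their values was not tested.

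**Figure D4:**
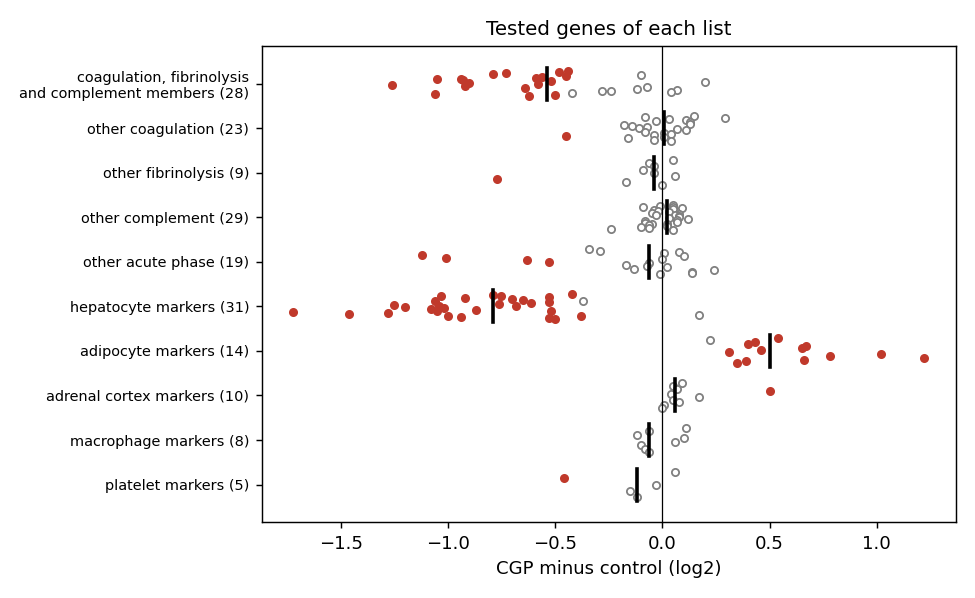
Difference between groups (horizontal axis, CGP minus control, log2) for the tested genes of 10 lists (vertical axis, with their number in parentheses), filled red for an adjusted p under 0.05, open for the others, with a black bar at the list's median. The medians of the tested genes are -0.54 for the 28 coagulation and complement members and -0.79 for the hepatocyte markers, while the other complement genes lie around 0 (0.02) and 13 of 14 adipocyte markers lie to the right in red.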

How the data were processed

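RNA from adrenals of 2 groups was measured on 6 whole-transcript arrays, and groups and array numbers came from the sample titles. The authors deposited 1 table of log2 values for 25150 probe sets. Per the labels it was made with RMA (background correction, quantile normalisation, probe set summary) in Partek, with no versions given. RMA compresses changes of dim probe sets. The genome build is not given in the sources used here. The 37 genes, the gene lists, the promoter motifs and the rule for naming genes (all members, every other pathway gene with an adjusted p under 0.05, and up to 4 of each marker list) were chosen with earlier results of these data known. Alb, Hnf4a and Cyp2e1 were named beyond that rule, after their values were seen. Names came from the platform annotation, with 16769 probe sets of 1 symbol, of which 16723 were found by Entrez number in a RefSeq table (GRCm38.p6).

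The comparison used the limma package, version 3.58.1, under R 4.3.3, fitting group alone with lmFit and eBayes (two-sided). It covered 16034 probe sets with 1 symbol and a value of 6 or more on 3 or more of the 6 arrays, with Benjamini-Hochberg adjustment over all of them. SE is the moderated standard error and SD that of 3 arrays. Where a fallen gene had CGP arrays under background, its fold was computed with each array's background as the floor. Background differed between the groups, and this step gives 1.08-fold for a gene under background on all 6 arrays. Such folds are therefore not strict lower bounds. The script was tested on simulated data. Arrays have no read depth, and their number limits the precision. A comparison of protein sequences was not run. Plots were drawn with matplotlib 3.10.9.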

Additional observations from a re-analysis of the deposited data

How the results depend on the processing

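Across 14 alternatives (no or a stricter filter, quantile normalisation, median centring, a variance trend with robust prior, array weights, the least bright probe set, the array number as a block, and each array left out), no member changed sign with a call, and 17 of the 19 lower calls held in all of those that tested the gene. The calls of Fga and C4bp did not. The count of lower members was 16 with a stricter filter of 7, which tested fewer genes, and 22 with array weights. Leaving out 1 array gave 18 to 20 lower members, 10 to 13 at 1.5-fold, 6 to 7 lower genes of the 4 other lists, and a median member difference of -0.49 to -0.46. The median moved by less than the spread between arrays. The count of higher genes in the other lists, 0, was 1 with a variance trend and robust prior (Il6st, 0.14, adjusted p = 0.025) and 1 with array weights (F13a1, 0.38, adjusted p = 0.036), and the cause was not tested. C8b passed in 6 alternatives, Hc in 2 and Cfb in 1. F13b, tested without the filter or with median centring, had an adjusted p of 0.0483 and 0.0217, with both means under background.

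Arrays share only a number across groups (correlations of same-numbered arrays' deviations -0.36, -0.17 and -0.12). With the array number as a replicate block, 18 members were lower, 11 of them by 1.5-fold, with Fga (adjusted p = 0.0945) and C4bp (adjusted p = 0.0523) lost and C8b (adjusted p = 0.0236) gained.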
